A study of Mus musculus with 6 samples.

Results

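Transcripts of 10 genes that carry iron through a macrophage were compared between RAW 264.7 cells with an APOBEC1 knockout (KO) and wild-type RAW 264.7 cells (WT). The genes were chosen by name for their known roles, with earlier results of these data known. All 10 were found among the 24848 gene symbols of the expression table. Tfrc, Steap3, Slc11a2 and Slc11a1 serve iron uptake and movement, Fth1 and Ftl1 storage, Slc40a1 export, Hmox1 the breakdown of heme, and Ireb2 and Aco1 the control of the others. RAW 264.7 is an established macrophage-like mouse line, and APOBEC1 is an enzyme that edits C to U in RNA. Both groups were grown in the same way, in high-glucose DMEM with 5% low-endotoxin serum and no added agent, and each of the 3 KO and 3 WT libraries came from poly(A) RNA of its own plate. The labels give neither the way the knockout was made nor the number of clones. Genotype and other traits in which both lines may differ cannot be told apart. Spread here is that between plates, and so are the p-values.

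Macrophages take up iron bound to transferrin and recover it from the heme of engulfed red cells. Iron that is not used is held in the ferritin shell or leaves through ferroportin, the only known cellular iron exporter. When iron is scarce, the iron regulatory proteins IRP1 (Aco1) and IRP2 (Ireb2) bind hairpins called iron-responsive elements. Binding in a 5′ UTR blocks translation, as for ferritin and ferroportin, and binding in a 3′ UTR protects the transcript from decay, as for the transferrin receptor. RNA levels therefore show only part of this control, and no protein was measured here.

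The hairpins are shown because they divide the genes into those under this control and those without a matched element. The search was for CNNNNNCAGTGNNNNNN with 5 base pairs across the loop (Watson-Crick or G-U), on the sense strand of the UTRs of the transcript with the longest coding sequence (GENCODE M21, mm10). Each window holds 30 bases, 5′ to 3′ on the transcript strand, with the 6-base loop in capitals.
Fth1, 5′ UTR, chr19:9982732-9982761, plus strand: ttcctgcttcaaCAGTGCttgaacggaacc
Ftl1, 5′ UTR, chr7:45459778-45459807, minus strand: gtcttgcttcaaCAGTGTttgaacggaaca
Slc40a1, 5′ UTR, chr1:45925464-45925493, minus strand: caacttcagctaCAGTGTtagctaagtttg
Tfrc, 3′ UTR, chr16:32631219-32631248, plus strand: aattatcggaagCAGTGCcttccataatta
Tfrc, 3′ UTR, chr16:32631598-32631627, plus strand: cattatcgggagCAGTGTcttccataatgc
Tfrc, 3′ UTR, chr16:32631663-32631692, plus strand: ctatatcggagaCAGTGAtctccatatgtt
Tfrc, 3′ UTR, chr16:32631710-32631739, plus strand: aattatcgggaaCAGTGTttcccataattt
Of the 10 genes, 4 held a match. Among 21755 protein-coding genes the motif stood in the 5′ UTR of 19 (0.0873%) and in the 3′ UTR of 98 (0.45%). The Fth1 and Ftl1 windows were identical at 26 of 30 positions, and the Tfrc windows shared 18 to 25 positions with each other. In the other 6 genes these letters are not in the windows searched, which says nothing of elements with another shape, such as the one known in some Slc11a2 transcripts.

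The libraries held 50493447 to 70411383 reads, and levels are in CPM, reads relative to the library total. Of 10614 genes with enough reads to test, 3230 (30.4%) passed a limma adjusted p of 0.05, 1436 higher (13.5%) and 1794 lower (16.9%) in KO cells. After removal of each library's trend with gene length and GC content the split was 2991 higher and 2167 lower. Apobec1 itself, which lies on chromosome 6, had 339, 340.1 and 361 CPM in KO replicates 1, 2 and 3, against 373 (replicate 1), 431 (replicate 2) and 396 (replicate 3) in WT. Its limma adjusted p was 0.0663, so the level of this transcript does not check the genotype labels. Macrophage markers were present, 8 of 9 at a mean of 1 CPM or more, with a sum of 3439 to 3794 CPM in KO and 3123 to 3225 CPM in WT. Single markers moved both ways without overlap between groups: Lyz2 (1110 to 1351 CPM in KO, 662 to 760 CPM in WT), Spi1 and Itgam were higher in KO, and Csf1r (694 to 804 CPM in KO, 834 to 908 CPM in WT), Adgre1, Fcgr1 and Mrc1 (0.0142 to 0.0750 CPM in KO, 1.29 to 1.77 CPM in WT) were lower. Their part in the results on iron genes was not tested. Markers of erythroid cells, which also express many genes of heme and iron handling, summed to 0.284 to 0.345 CPM in KO and 0.416 to 0.651 CPM in WT, with 0 of 7 at 1 CPM and 4 of 7, the globins, at 0 in every library. The WT libraries differed by base composition. For WT replicate 1 the median log2 difference from the other WT libraries was -0.37 across the tested genes in the lowest quintile of GC content (up to 44.1% GC). In the highest quintile (from 55.6% GC) it was 0.17. WT replicate 2 deviated the other way, by 0.29 in the lowest quintile and -0.05 in the highest. Results on Tfrc, Ireb2 and Slc40a1, at 39.8%, 39.0% and 43.5% GC, depend on these libraries and are given below with and without each.

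Of the 10 genes, 4 rose in KO cells (Slc11a1, Fth1, Slc11a2 and Aco1), 1 fell (Steap3) and 5 did not pass the test. The 4 of 10 higher stand beside 13.5% of all tested genes and the 1 of 10 lower beside 16.9%. KO and WT libraries did not overlap for 7 of 10 genes, against 46.4% of all tested genes. The median log2 fold change was 0.22 over the 10 genes and -0.02 over all tested genes. The list was chosen with earlier results of these data known, and these counts describe it without a test. None of the 10 lies on chromosome 2 or 6, whose genes had median log2 fold changes of 0.34 and -0.16.

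**Figure D1:**
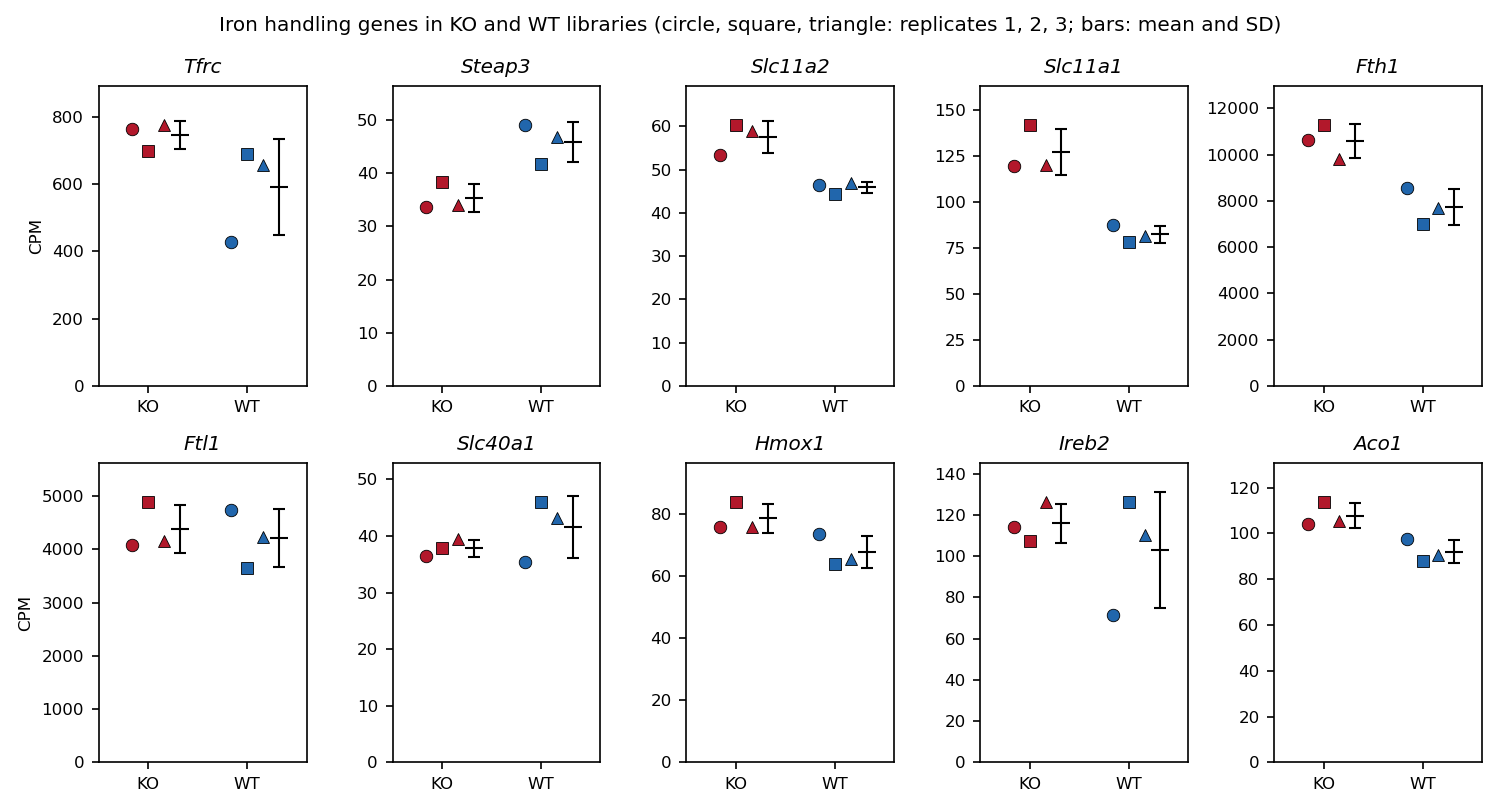
CPM of each of the 10 genes in the 3 KO and 3 WT libraries, on axes that start at 0, with symbols for the replicate number and bars for the mean and SD. KO libraries lie above all WT libraries for Slc11a1, Fth1, Slc11a2, Aco1, Hmox1 and Tfrc and below them for Steap3, and WT replicate 1 is the low point for Tfrc, Ireb2 and Slc40a1.

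Iron bound to transferrin enters through the transferrin receptor Tfrc (chromosome 16, 32608920 to 32632794, plus strand, mm10). Tfrc stood at 763 CPM in KO replicate 1, 698 CPM in replicate 2 and 775 CPM in replicate 3, against 427, 688 and 657 CPM in the WT replicates in the same order. The lowest KO library was just above the highest WT library, and WT replicate 1 was far below its companions. The log2 fold change was 0.37 ± 0.17 (SE, n = 3 each), with a 95% confidence interval of -0.03 to 0.76 and a limma adjusted p of 0.141, so no change was called. Without WT replicate 1 the log2 fold change was 0.15 (limma adjusted p = 0.124), and without WT replicate 2 it was 0.49 (limma adjusted p = 0.0399). DESeq2 on the recovered reads called Tfrc higher at an adjusted p of 0.0470, and limma after removal of the length and GC trend did so at 0.00324. In RNA from whole plates a different mix of cells and a different amount of RNA per cell cannot be told apart, for this gene and those that follow.

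Steap3 encodes the endosomal reductase that turns ferric into ferrous iron after transferrin has released it (chromosome 1, 120190757 to 120272705, minus strand). It was the 1 gene of the 10 that fell. It had 33.6, 38.4 and 34.0 CPM in KO replicates 1, 2 and 3, against 49.0, 41.8 and 46.8 CPM in WT. Every KO library lay below every WT library, which put KO cells 23.0% lower. The log2 fold change was -0.37 ± 0.09 (limma adjusted p = 0.0149). The call was lost without KO replicate 1 (limma adjusted p = 0.0704), without KO replicate 3 (0.0571) and without WT replicate 3 (0.0547), while the log2 fold change stayed between -0.44 and -0.31 under the 19 alternatives tried.

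Slc11a2 (DMT1) carries ferrous iron out of the endosome into the cytosol, one step after Steap3, and it rose (chromosome 15, 100387898 to 100425072, minus strand). Slc11a2 reached 53.3, 60.3 and 59.0 CPM in KO replicates 1, 2 and 3, against 46.4, 44.4 and 46.8 CPM in WT. The groups did not overlap and the WT libraries lay close together. KO cells were 1.25-fold higher, with a log2 fold change of 0.32 ± 0.07 (limma adjusted p = 0.0113). Without KO replicate 2, the highest library, the limma adjusted p was 0.0530.

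Slc11a1 (NRAMP1), its paralogue, pumps divalent metals out of the phagosome of macrophages and is known for restricting intracellular bacteria (chromosome 1, 74375195 to 74386062, plus strand). BALB/c mice, the source of RAW 264.7, are known to carry an allele whose protein does not function, and only the transcript was measured here. It showed the largest log2 fold change of the 10 genes. Slc11a1 had 119, 142 and 120.1 CPM in KO replicates 1, 2 and 3, against 87.3, 78.1 and 81.4 CPM in WT. The lowest KO library was well above the highest WT library. KO cells were 1.54-fold higher, with a log2 fold change of 0.62 ± 0.08 (limma adjusted p = 0.00128). It was the 1 gene of the 10 called higher under all 19 alternatives, with log2 fold changes of 0.54 to 0.70. The ratio of Slc11a1 to Slc11a2 reads was 2.24, 2.35 and 2.04 in KO replicates 1, 2 and 3, against 1.88, 1.76 and 1.74 in WT, so the phagosomal transporter was also higher relative to its endosomal paralogue in every KO library.

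Ferritin is a shell of heavy and light chains. The heavy chain, Fth1, holds the ferroxidase site that oxidises iron for storage (chromosome 19, 9980598 to 9985098, plus strand). Fth1 had 10636, 11279 and 9830.4 CPM in KO replicates 1, 2 and 3, against 8555, 6994.5 and 7677 CPM in WT. The groups did not overlap. KO cells were 1.37-fold higher, with a log2 fold change of 0.45 ± 0.11 (limma adjusted p = 0.0148). The direction held under all 19 alternatives, but the call was lost without KO replicate 1 (limma adjusted p = 0.0668), KO replicate 2 (0.0528) or WT replicate 3 (0.0552), and with no minimum level for the genes tested (0.207).

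The light chain, Ftl1, promotes formation of the mineral core (chromosome 7, 45457944 to 45459884, minus strand), and no change was called for it. Ftl1 had 4085, 4896 and 4154 CPM in KO replicates 1, 2 and 3, against 4738, 3646 and 4234 CPM in WT. The groups overlapped throughout. The log2 fold change was 0.06 ± 0.12, with a 95% confidence interval of -0.22 to 0.34 (limma adjusted p = 0.738). Its sign turned without KO replicate 2 (-0.02) and without WT replicate 2 (-0.04). Ftl1 alone among the 10 genes has near-identical copies in the annotation, 5 genes at 95% identity or more over at least 50% of its transcript, one of them 99.56% identical over 94.0%. None of the 5 has a row in the table, so reads from them, if any, may have been counted for Ftl1 or lost. Ftl1 also shares 26.5% of its exon length with Gm10252 on the other strand and 8.13% with Gm22133 on the same strand. Neither has a row, and counting by strand is not stated.

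Set against each other within a library, the chains separated the groups. The ratio of Fth1 to Ftl1 reads was 2.604, 2.30 and 2.37 in KO replicates 1, 2 and 3, against 1.81, 1.92 and 1.81 in WT. It averaged 2.42 ± 0.158 in KO and 1.85 ± 0.0631 in WT (SD, n = 3 each), and the lowest KO library was above the highest WT library. Scaling between libraries cannot move such a ratio. Together both transcripts took 1.47%, 1.62% and 1.40% of reads in KO and 1.33%, 1.06% and 1.19% in WT. The deposited alignments had duplicates removed, which can cap transcripts as abundant as these, and how far it did was not tested.

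**Figure D2:**
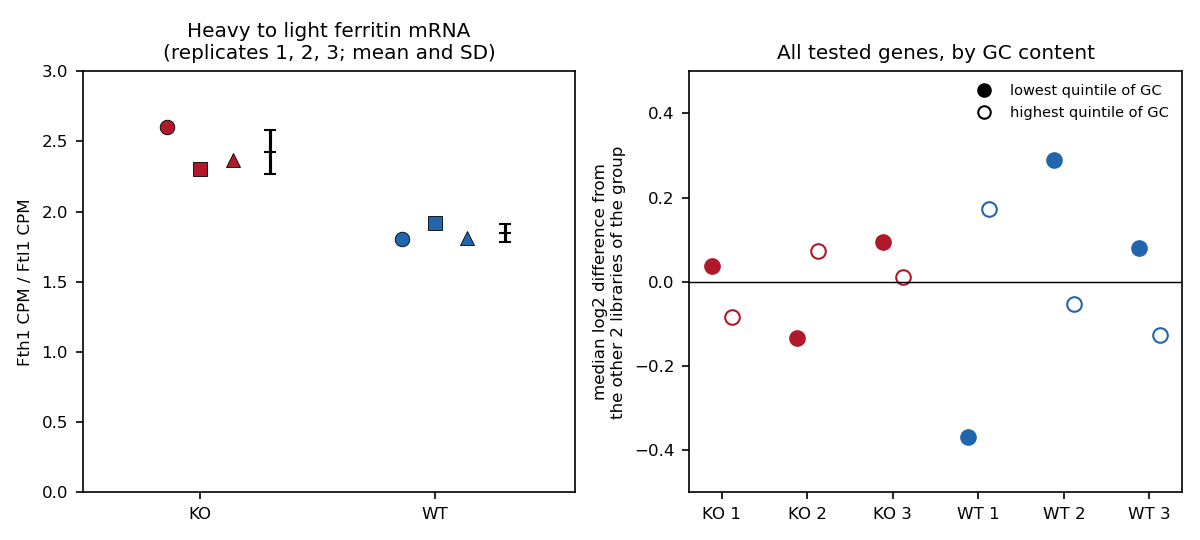
Left, the ratio of Fth1 to Ftl1 CPM in each KO and WT library, with the mean and SD at the side. Right, the median log2 difference of each library from the other 2 of its group over the tested genes in the lowest and the highest quintile of GC content. KO ratios lie between 2.30 and 2.604 and WT ratios between 1.81 and 1.92, and WT replicate 1 has the lowest point on the right, -0.37.

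Slc40a1 encodes ferroportin, the exporter (chromosome 1, 45908068 to 45926523, minus strand), and no change was called. Slc40a1 had 36.4, 37.8 and 39.4 CPM in KO replicates 1, 2 and 3, against 35.5, 46.1 and 43.2 CPM in WT. All KO libraries fell inside the WT range. The log2 fold change was -0.12 ± 0.10, with a 95% confidence interval of -0.36 to 0.11 (limma adjusted p = 0.398). Without WT replicate 1 it was -0.23, and the limma adjusted p was 0.0321, so whether ferroportin counted as lower in KO cells turned on that library. Without WT replicate 2 the log2 fold change was -0.05 (limma adjusted p = 0.767).

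Hmox1, heme oxygenase 1, opens the heme ring and frees its iron (chromosome 8, 75093621 to 75100589, plus strand). Hmox1 had 76.0, 84.0 and 75.9 CPM in KO replicates 1, 2 and 3, against 73.5, 64.0 and 65.5 CPM in WT. The groups did not overlap, by a narrow margin at WT replicate 1. The log2 fold change was 0.22 ± 0.08 with a 95% confidence interval of 0.03 to 0.40, and the limma adjusted p of 0.0723 missed the threshold. Without WT replicate 1 the log2 fold change was 0.28 (limma adjusted p = 0.0156), DESeq2 gave an adjusted p of 0.0455, and limma after removal of the length and GC trend gave 0.00164.

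The 2 IRPs differed in how firmly they could be read. Aco1, which is the cytosolic aconitase when it holds an iron-sulfur cluster and IRP1 when it does not, rose by the smallest margin of the called genes (chromosome 4, 40143081 to 40198338, plus strand). Aco1 had 104, 114 and 106 CPM in KO replicates 1, 2 and 3, against 97.7, 87.8 and 90.5 CPM in WT. The groups did not overlap. KO cells were 1.17-fold higher, with a log2 fold change of 0.23 ± 0.07 (limma adjusted p = 0.0398). The call was lost under 9 of 19 alternatives, including the removal of any of 5 libraries (limma adjusted p = 0.0827, 0.143 and 0.0841 without KO replicates 1, 2 and 3, and 0.114 and 0.117 without WT replicates 2 and 3), quantile normalization (0.153), CPM without the ribosomal precursor Rn45s (0.0526) and limma without a trend (0.0551).

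Ireb2 (IRP2), which is removed by proteasomes when iron is plentiful, was not called (chromosome 9, 54863789 to 54912530, plus strand). Ireb2 had 114, 107 and 126 CPM in KO replicates 1, 2 and 3, against 71.7, 126 and 110.3 CPM in WT. WT replicate 1 was far below the KO range, and the other WT libraries lay at the level of KO libraries. The log2 fold change was 0.21 ± 0.19 (95% confidence interval -0.23 to 0.64, limma adjusted p = 0.446), and without WT replicate 1 it was -0.03. Without WT replicate 2 it was 0.38 (limma adjusted p = 0.103). After removal of the length and GC trend it was 0.18 with a limma adjusted p of 0.0336.

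**Figure D3:**
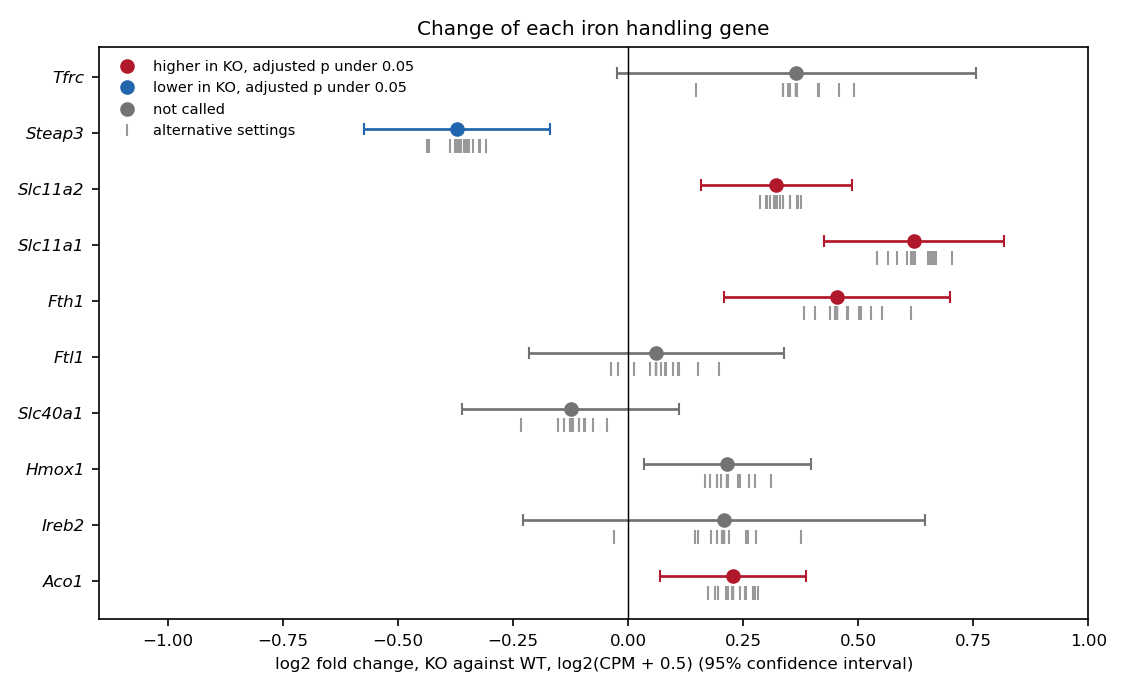
Log2 fold change of each gene, KO against WT on log2(CPM + 0.5), with its 95% confidence interval, and grey marks for the values under 19 alternative settings. Intervals of Slc11a1, Fth1, Slc11a2, Aco1 and the uncalled Hmox1 lie above 0 and that of Steap3 below it, while Tfrc and Ireb2 have the widest intervals.

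In the 4 genes with an iron-responsive element the changes are given here by the side of the UTR. Those with a 5′ element had log2 fold changes of 0.45 for Fth1, 0.06 for Ftl1 and -0.12 for Slc40a1. Fth1 and Ftl1 carry the 2 most alike windows printed above. Tfrc, with 4 windows in the 3′ UTR, had a log2 fold change of 0.37. Of the 5 genes called, 4 had no matched element, and of all 10 genes 4 had one. Slc11a2 is among the called genes without a match, and an element of another shape is known in some of its transcripts. Whether calls go with the element was not tested.

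Levels of different genes can be set side by side only per length. Per kilobase of all annotated exons, ferritin far exceeded the rest, with Ftl1 at 3267 ± 336 CPM per kb in KO and 3139 ± 408 in WT and Fth1 at 3051 ± 209 in KO and 2232 ± 226 in WT. Tfrc followed at 120.5 ± 6.72 CPM per kb in KO and 95.5 ± 23.1 in WT. The order went on, by KO means, with Hmox1 (44.9 in KO, 38.7 in WT), Slc11a1 (34.3 and 22.2), Aco1 (24.0 and 20.5), Ireb2 (12.2 and 10.8), Slc11a2 (9.05 and 7.22), Steap3 (6.18 and 8.03) and Slc40a1 (4.21 and 4.62). The ranges of Ftl1 and Fth1 overlapped in KO (3049 to 3654 and 2834 to 3252 CPM per kb), so those neighbours did not differ beyond their spread. In WT, the range of Steap3 (7.31 to 8.58 CPM per kb) overlapped those of both its neighbours, Ireb2 (7.57 to 13.3) and Slc11a2 (6.99 to 7.37). Slc11a1 (21.1 to 23.6) and Aco1 (19.5 to 21.7) also overlapped in WT. By all annotated exons Steap3 stood above Slc11a2 in WT and below it in KO. By the length of the longest coding transcript it stood below Slc11a2 in both groups (8.89 against 10.4 CPM per kb in WT). By that length Slc11a1 stood above Hmox1 in KO (54.9 and 50.1 CPM per kb, with overlapping ranges) and below it in WT (35.5 and 43.1). By the length of the longest coding transcript Fth1 led, at 7083 ± 486 CPM per kb in KO and 5182 ± 524 in WT, above Ftl1 at 4523 ± 465 in KO and 4345 ± 564 in WT, and Slc40a1 stood above Steap3 in both groups. Ferritin chain order by level therefore depended on the length used. The contrast of KO with WT for a single gene cannot depend on it, since both groups are divided by the same length.

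**Figure D4:**
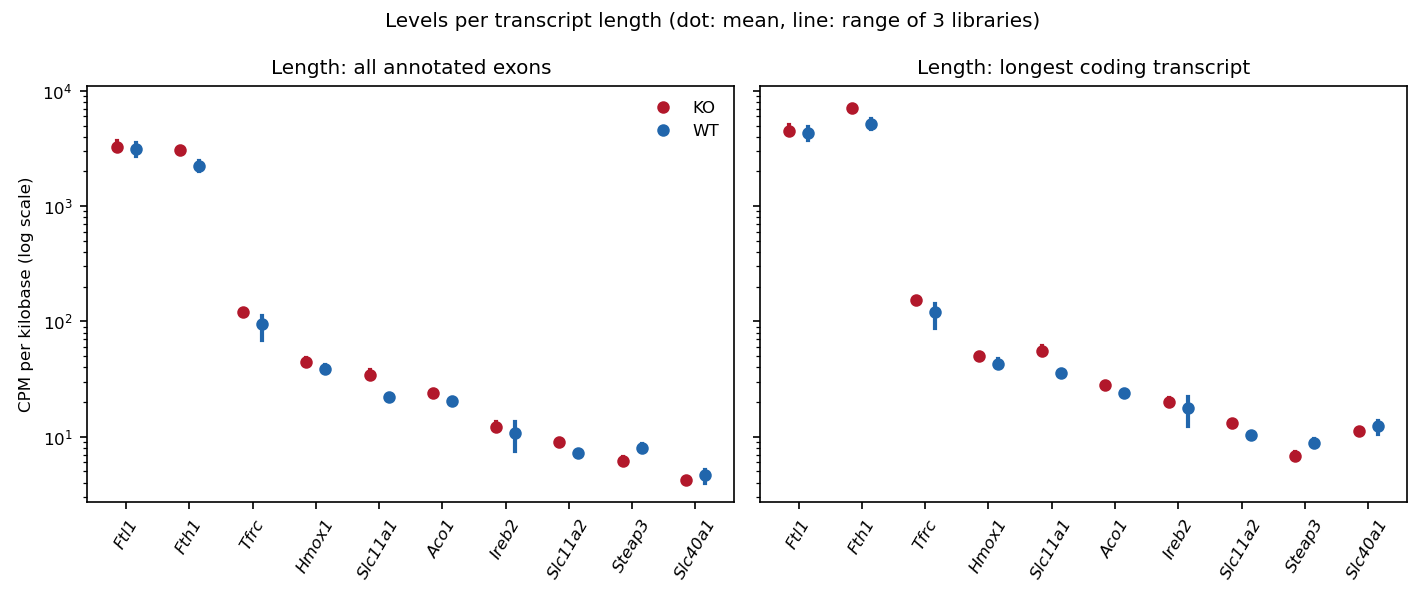
Mean level of each gene in CPM per kilobase on a log scale, with the range of 3 libraries, in KO and WT, for 2 definitions of length. Both ferritin chains exceed the next gene, Tfrc, in both panels, and Fth1 and Ftl1 change places between panels.

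The wider iron pathway was read from 91 further genes of the table in 9 lists, of which 69 could be tested. Of these 14 rose and 9 fell, 23 of 69 beside 30.4% of all tested genes, with a median log2 fold change of -0.0023 beside -0.02. From each list the called genes with the lowest adjusted p are named, at most 4. Of 17 called genes so named, 12 were called under all 19 alternatives.

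In the import, export and breakdown of heme, 5 of 8 tested genes rose, beside 13.5% of all tested genes, with a median log2 fold change of 0.32. No tested gene of this list was lower by limma, edgeR or DESeq2, nor at an unadjusted limma p under 0.05. Of the 3 tested genes not called, Abcg2 and Slc46a1 had negative log2 fold changes (-0.18 and -0.19) and Por a positive one (0.20). Flvcr2, also of this list but too low to test, was lower in KO without overlap and is given at the end. Biliverdin reductase B (Blvrb), an NADPH-dependent flavin and biliverdin reductase, had 70.9, 72.7 and 61.6 CPM in KO replicates 1, 2 and 3, against 39.2, 31.6 and 31.8 CPM in WT. The groups were far apart, 2.00-fold on average, with a log2 fold change of 0.99 ± 0.11 (limma adjusted p = 0.000364). The heme exporter Flvcr1 had 219, 209 and 226 CPM in KO replicates 1, 2 and 3, against 109, 164 and 157 CPM in WT. Its log2 fold change was 0.62 ± 0.14 (limma adjusted p = 0.0135), and without KO replicate 1 the limma adjusted p was 0.0552. Slc48a1 (HRG1), which moves heme out of the phagolysosome, averaged 131 ± 11.1 CPM in KO and 94.8 ± 8.65 CPM in WT (log2 fold change 0.46, limma adjusted p = 0.00661). Biliverdin reductase A (Blvra), which makes bilirubin from the product of heme oxygenase, averaged 405 ± 13.4 CPM in KO and 308 ± 8.46 CPM in WT (log2 fold change 0.39, limma adjusted p = 0.00197). Blvra lies on chromosome 2, whose 856 tested genes had a median log2 fold change of 0.34. The fifth, Hmox2, the constitutive heme oxygenase, is named here after its value was seen (48.4 ± 0.154 CPM in KO, 40.5 ± 2.79 CPM in WT, limma adjusted p = 0.0282). It shares 40.2% of its exon length with Cdip1 on the other strand, and counting by strand is not stated. Cd163, the receptor for hemoglobin bound to haptoglobin, and Spic, a factor of red pulp macrophages, had 0 reads in all 6 libraries, which allows up to 0.0426 to 0.0594 CPM per library.

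Among the genes of uptake and intracellular movement 3 rose and 2 fell of 7 tested (median log2 fold change 0.15). Mitoferrin 1 (Slc25a37), which imports iron into mitochondria, had 118, 105.0 and 145 CPM in KO replicates 1, 2 and 3, against 45.9, 74.4 and 49.8 CPM in WT. KO cells were 2.16-fold higher, with a log2 fold change of 1.13 ± 0.19 (limma adjusted p = 0.00320), the largest among the tested iron genes named. Transferrin itself (Trf) fell, to 14.8 ± 1.54 CPM in KO against 24.1 ± 1.501 CPM in WT, with a log2 fold change of -0.69 ± 0.10 (limma adjusted p = 0.00137). A separately annotated protein-coding gene, Gm20425, shares 63.5% of the Trf exon length on the same strand. It has no row of its own, so reads from it, if any, may have been counted for Trf or lost. Lrp1, which takes up the heme carrier hemopexin, averaged 438 ± 76.1 CPM in KO and 323 ± 25.6 CPM in WT (limma adjusted p = 0.0376), and its call was lost without KO replicates 2 or 3 (0.110 and 0.103) or WT replicate 3 (0.124). The Lrp1 call was also lost with no minimum level (limma adjusted p = 0.0591), quantile normalization (0.0625) and a replicate block (0.0551). The lysosomal channel Mcoln1 averaged 43.3 ± 1.80 CPM in KO and 52.0 ± 4.51 CPM in WT (limma adjusted p = 0.0431), and 5 of 6 single-library removals lost its call (0.149, 0.122 and 0.0709 without KO replicates 1, 2 and 3, 0.122 and 0.0521 without WT replicates 2 and 3). Its call was also lost with no minimum level (limma adjusted p = 0.0520), limma without a trend (0.0512), a replicate block (0.127) and length and GC trends removed (0.0770). The fifth, Slc39a14 (ZIP14), was named after its value was seen (43.3 ± 2.44 CPM in KO, 37.0 ± 1.43 CPM in WT, limma adjusted p = 0.0487).

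No tested gene of ferritin turnover was called by limma, edgeR or DESeq2 (0 of 3, beside 30.4% of all tested genes by limma). The median log2 fold change was -0.0023, and 1 of 3, Pcbp1, was lower at an unadjusted limma p under 0.05. The 2 most abundant, the iron chaperones Pcbp1 and Pcbp2, averaged 482 ± 6.501 and 450 ± 20.1 CPM in KO, against 552 ± 38.2 CPM for Pcbp1 and 449 ± 32.6 CPM for Pcbp2 in WT. Ncoa4, the receptor that delivers ferritin to lysosomes, named after its value was seen, averaged 102 ± 2.55 CPM in KO and 102 ± 0.813 CPM in WT. Of the export and hepcidin list 3 of 10 genes reached the level for testing. Hfe, the hemochromatosis protein that binds the transferrin receptor, fell to 12.7 ± 1.22 CPM in KO against 18.6 ± 0.608 CPM in WT (log2 fold change -0.54 ± 0.09, limma adjusted p = 0.00311).

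A repressor and an activator of the heme oxygenase gene both rose, 2 of 6 tested genes of their list, beside 13.5% of all tested genes. Of the same 6 genes, 0 were lower by limma (also 0 by edgeR, by DESeq2 and at an unadjusted p under 0.05). Bach1, the heme-sensing repressor of Hmox1 and ferritin genes, averaged 69.9 ± 3.33 CPM in KO and 50.4 ± 6.84 CPM in WT (log2 fold change 0.48 ± 0.10, limma adjusted p = 0.0110). Nfe2l2 (NRF2), the activator of the same genes, averaged 256 ± 11.3 CPM in KO and 208 ± 8.98 CPM in WT (log2 fold change 0.30 ± 0.06, limma adjusted p = 0.00990). Nfe2l2 lies on chromosome 2, and its limma adjusted p was 0.0512 without KO replicate 1 and 0.0575 with a replicate block.

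In the list on control of the IRPs and their targets 1 of 6 tested genes fell, a share near the 16.9% of all tested genes. Of the same 6 genes, 0 were higher by limma, edgeR or DESeq2, or at an unadjusted limma p under 0.05. Zfp36l1, an RNA-binding protein that speeds the decay of transcripts with AU-rich 3′ ends, fell to 107 ± 4.17 CPM in KO against 190.3 ± 25.6 CPM in WT (log2 fold change -0.81 ± 0.10, limma adjusted p = 0.000692). It shares 55.9% of its exon length with Gm26669 on the other strand, which has no row, and counting by strand is not stated.

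Of 11 tested genes of heme synthesis, 2 were lower by limma (1 by edgeR and by DESeq2), a share near the 16.9% of all tested genes, and 0 were higher by limma, edgeR or DESeq2 or at an unadjusted p under 0.05 (median log2 fold change -0.15). Ppox, which makes protoporphyrin, fell to 15.1 ± 0.618 CPM in KO against 24.5 ± 3.16 CPM in WT (log2 fold change -0.67 ± 0.10, limma adjusted p = 0.00214). It shares 17.5% of its exon length with B4galt3. Abcb10, which stabilises mitoferrin 1, averaged 8.61 ± 0.504 CPM in KO and 10.6 ± 0.667 CPM in WT (limma adjusted p = 0.0420), a call lost in 5 of 6 single-library removals (0.155, 0.0683 and 0.114 without KO replicates 1, 2 and 3, 0.0697 and 0.118 without WT replicates 1 and 3). It was also lost with TMM scaling (0.0945), edgeR (adjusted p = 0.0742) and DESeq2 (adjusted p = 0.0740). Quantile normalization gave a log2 fold change of -0.14 (limma adjusted p = 0.398). The call was lost as well with no minimum level (limma adjusted p = 0.0923) and with a replicate block (0.160).

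Genes of iron-sulfur cluster assembly were split, 3 higher and 3 lower of 21 tested (median log2 fold change -0.02). Both shares are near those of all tested genes, 13.5% higher and 16.9% lower. Nfs1, the cysteine desulfurase that supplies sulfur, averaged 89.3 ± 2.18 CPM in KO and 66.1 ± 1.36 CPM in WT (log2 fold change 0.43, limma adjusted p = 0.00116). Ciao1, which targets clusters to cytosolic proteins, averaged 57.5 ± 2.05 CPM in KO and 42.6 ± 0.918 CPM in WT (log2 fold change 0.43, limma adjusted p = 0.00171). Both lie on chromosome 2, where 4 of the 5 tested genes of the wider lists were called higher. Iscu, the scaffold on which clusters are built, lies on chromosome 5 and averaged 80.3 ± 3.44 CPM in KO and 63.4 ± 3.91 CPM in WT (log2 fold change 0.34, limma adjusted p = 0.00882).

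**Figure D5:**
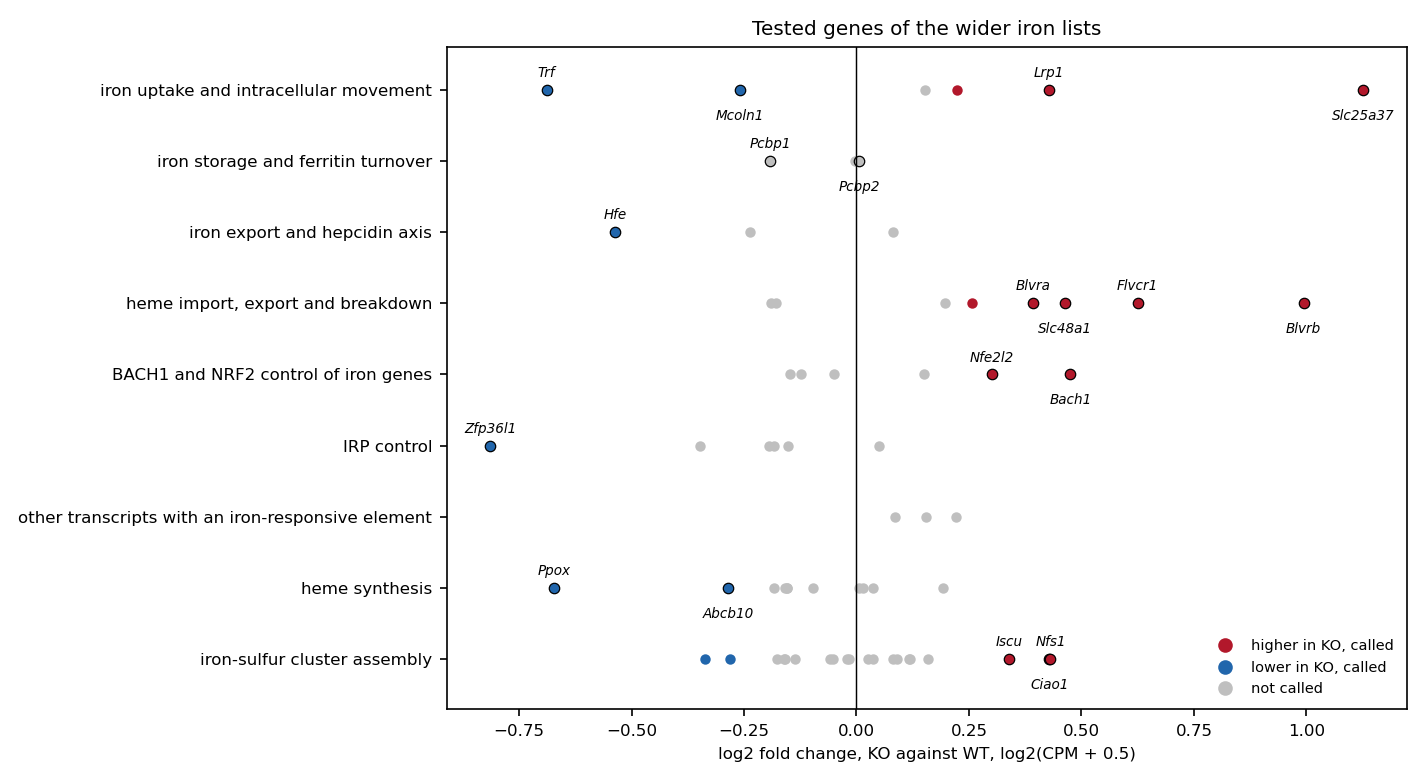
Log2 fold change, KO against WT on log2(CPM + 0.5), of 67 of the 69 tested genes of the wider iron lists, 1 row of points per list, with outlined and labelled points for genes named by rule. All 5 called heme breakdown and transport genes lie to the right of 0, both called heme synthesis genes to the left, and Slc25a37 lies farthest right at 1.13.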

How the data were processed

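Poly(A) RNA of 3 KO and 3 WT plates was sequenced as paired-end 125-nucleotide reads, per the labels' protocols. The submitters' processing notes name STAR 2.6.0a, SAMtools, Picard, FastQC and Trim Galore on mm10, and duplicates were removed, per the file headers. For the counter, its annotation and its strand setting, nothing is given in the sources used here. One table of CPM was deposited. All values (100.0%, tolerance 0.01 of a read) came out as whole reads, so depth was recovered, and floors of 3 reads cover counting error only. The genes at 1 CPM or more in 3 or more of 6 libraries were tested on log2(CPM + 0.5), which understates changes of low genes, with limma 3.58.1 in R 4.3.3 (eBayes with trend) and Benjamini-Hochberg adjustment over all 10614, checked on simulated data. With 3 against 3 libraries an exact permutation test cannot go below 0.1. No 2 libraries agreed within sampling noise. The members and lists were chosen with earlier results of these data known. All members, and up to 4 called genes per list by adjusted p (otherwise the 2 most abundant), are named, except 2 that are not reported here and not plotted. Annotation, lengths, GC content and UTRs came from GENCODE M21 (24305 symbols matched, 543 not), and copies from BLAST 2.17.0. Alternatives were a replicate block, other scalings, minimums, pseudocounts and limma settings, leaving out each library, edgeR 4.0.16 and DESeq2 1.42.0, and, chosen after seeing the data, removal of length and GC trends.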

Additional observations from a re-analysis of the deposited data

How the results depend on the processing

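The 10 genes were recomputed under 19 alternatives. Slc11a1 was called under all of them, Slc11a2 under all but 2, Steap3 under all but 4, Fth1 under all but 5 and Aco1 under all but 9. With a single library left out, 1 to 5 of the 10 genes were called higher and 0 to 2 lower, 9 to 15 genes of the wider lists were called higher and 4 to 14 lower, and 1973 to 3761 of all genes were called. After removal of length and GC trends, chosen after seeing the data, 5158 genes were called, 58.0% of them higher against 44.5% before, and 7 of the 10 were called higher. Signs turned for Ftl1, Ireb2 and Pcbp2. Leaving out a library gave -0.0377 to 0.1512 for Ftl1, -0.0307 (without WT replicate 1) to 0.3762 for Ireb2 and -0.0302 to 0.0656 for Pcbp2, and Pcbp2 was also at -0.0606 with quantile normalization, -0.0083 without Rn45s and -0.0002 with trends removed. The cause was not tested.

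Nothing in the labels pairs the plates by replicate number. Deviations from the group means of same-numbered KO and WT libraries correlated at -0.247, -0.641 and -0.173 across genes. Those of differently numbered KO and WT libraries correlated at -0.438 to 0.614. Such deviations sum to 0 within each group, so these correlations depend on each other. Whether same-numbered plates were handled together was not tested. With a replicate block 2009 genes were called, 1 of the 10 higher and 0 lower, and 9 wider genes higher and 4 lower. The planned sum of Ftl1 with its near-identical copies was not run, since no copy has a row. Genes that reached 1 CPM in fewer than 3 libraries were not tested.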

Other observations

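Some iron genes were too low to test. Ceruloplasmin (Cp), the ferroxidase that works with ferroportin, had 0.0426, 0.0167 and 0.0150 CPM in KO replicates 1, 2 and 3, at or under the floor of 3 reads, against 0.436, 0.460 and 0.274 CPM in WT. The related heme and choline transporter Flvcr2 had 0.469, 0.485 and 0.585 CPM in KO replicates 1, 2 and 3, against 0.792, 1.01 and 0.685 CPM in WT. For both genes the KO and WT libraries did not overlap, and no test was made below the level for testing. The iron reductases Steap1 and Steap4 and the mitochondrial ferritin Ftmt had 0 reads in every library, so Steap3 was the 1 abundant member of its family (33.6 to 38.4 CPM in KO, 41.8 to 49.0 CPM in WT).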
